A study of Mus musculus with 2 samples.

Results

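The genes described here are the amino acid and peptide transporters, defined as every listed symbol of the solute carrier families Slc1, Slc3, Slc6, Slc7, Slc15, Slc36, Slc38 and Slc43. The symbol pattern took 58 of the 22350 gene symbols of the series, from 8 families, and did not use the measured values. It fits its name for most of them, but it also took 4 transcripts that are no transporter gene, namely the protein-coding neighbour gene Slc7a6os and the 3 antisense transcripts Slc36a1os, Slc36a3os and Slc6a19os. Carriers of monoamines, GABA, taurine and creatine, which are not used for protein synthesis, belong to family Slc6 and were kept. Messenger RNA had been sequenced from colon epithelial cells of Pkm2-/- C57BL/6 mice and of wild type C57BL/6 mice, with 1 library per genotype. Both genotypes were given 2.5% DSS (dextran sulfate sodium), which damages the epithelium of the colon, for 3 days. The sources used here say neither how the Pkm2 allele was made nor how many animals a library holds, and no untreated mice were analysed here. The comparison asks how loss of Pkm2, the pyruvate kinase isoform of proliferating cells, bears on the DSS-treated epithelium.

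Amino acids enter an intestinal epithelial cell at its luminal brush border and leave at its basolateral face, through carriers with overlapping substrates. Some carriers are driven by the sodium or proton gradient, while others exchange one amino acid for another. Several exchangers are heterodimers, in which a heavy chain of family Slc3 brings a light chain of family Slc7 to the membrane. The heavy chain Slc3a1 (rBAT) pairs with the light chain Slc7a9 to take up cystine and cationic amino acids from the lumen, and in humans loss of either causes cystinuria. The heavy chain Slc3a2 (4F2hc, CD98) pairs with several light chains at the basolateral face. In the small intestine Slc15a1 (PepT1) carries short peptides released by digestion, whereas colon is known for Slc6a14 and Slc1a5.

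Values were FPKM, that is fragments divided by transcript length and by the number of fragments mapped. Steps between low values implied a depth of about 21400000 fragments for Pkm2-/- and 18900000 for wild type. With 1 library per genotype no difference has a replicate check and no test was possible, so every comparison describes these 2 libraries. The 95% counting intervals given with a fold rest on fragments implied by the length of the transcript, are approximate and cover counting error only. Pkm stood at 86.2 FPKM in the Pkm2-/- library and 281 FPKM in the wild type library, 3.26-fold lower (95% counting interval 3.15 to 3.37), but this value covers both isoforms of the gene and does not measure Pkm2 alone. All 9 epithelial markers, Epcam and Cdh1 among them, lay within 1.5-fold, with summed levels of 7490 FPKM in Pkm2-/- and 6466 FPKM in wild type. Markers of differentiated colonocytes summed to 7547 FPKM in Pkm2-/- and 13794 FPKM in wild type, and 7 of 9 measured ones were at least 1.5-fold lower, none higher. All 8 measured T cell markers were at least 1.5-fold higher, with sums of 84.8 FPKM in Pkm2-/- and 21.05 FPKM in wild type.

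Of the 58 members, 53 were listed in both libraries, 3 in Pkm2-/- only and 2 in wild type only. A mean of at least 1 FPKM, the level asked of a gene before it was counted, was reached by 34 members. Counts below use log2((Pkm2-/- FPKM + 1)/(wild type FPKM + 1)), on which differences of low genes come out too small, whereas folds are plain ratios of FPKM. Among the 34 measured members, 5 (14.7%) were at least 1.5-fold lower in Pkm2-/-, beside 5.29% of the 12429 genes measured across the series. None was at least 1.5-fold higher, beside 4.46% of all genes. At 2-fold, 3 members (8.82%) were lower and none higher, beside 1.90% and 1.42% of all genes. The 5 members lower by 1.5-fold were Slc7a9, Slc3a1, Slc15a1, Slc6a14 and Slc36a1, which are all carriers or carrier subunits of the luminal face. With a pseudocount of 5 FPKM, 3 members counted as 1.5-fold lower and 0 as 2-fold lower, beside 2.65% and 0.998% of all genes. By plain ratio, 14 of the 34 lay within 1.1-fold and 12 between 1.1-fold and 1.5-fold, while 7 were at least 1.5-fold lower and 1 was higher. No share over all genes is given for these plain ratios. The standard deviation of the log2 ratios was 0.46 for the members and 0.47 for all measured genes. The median log2 ratio of the members was -0.03, with 58.8% of them below 0, against 0.06 and 41.2% over all genes. That median turned to 0.0168, with 18 of 34 members above 0, when the libraries were scaled to equal sums outside the mitochondrial genome, while the luminal carriers named above stayed lower. The median over all genes was 0.105 under that scaling, so the members' median still lay below it. The 162 measured genes of other solute carrier families had a median of -0.11, with 11.1% at least 1.5-fold lower and 1.85% higher, so that a lean towards lower values was found outside the amino acid transporters as well.

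**Figure D1:**
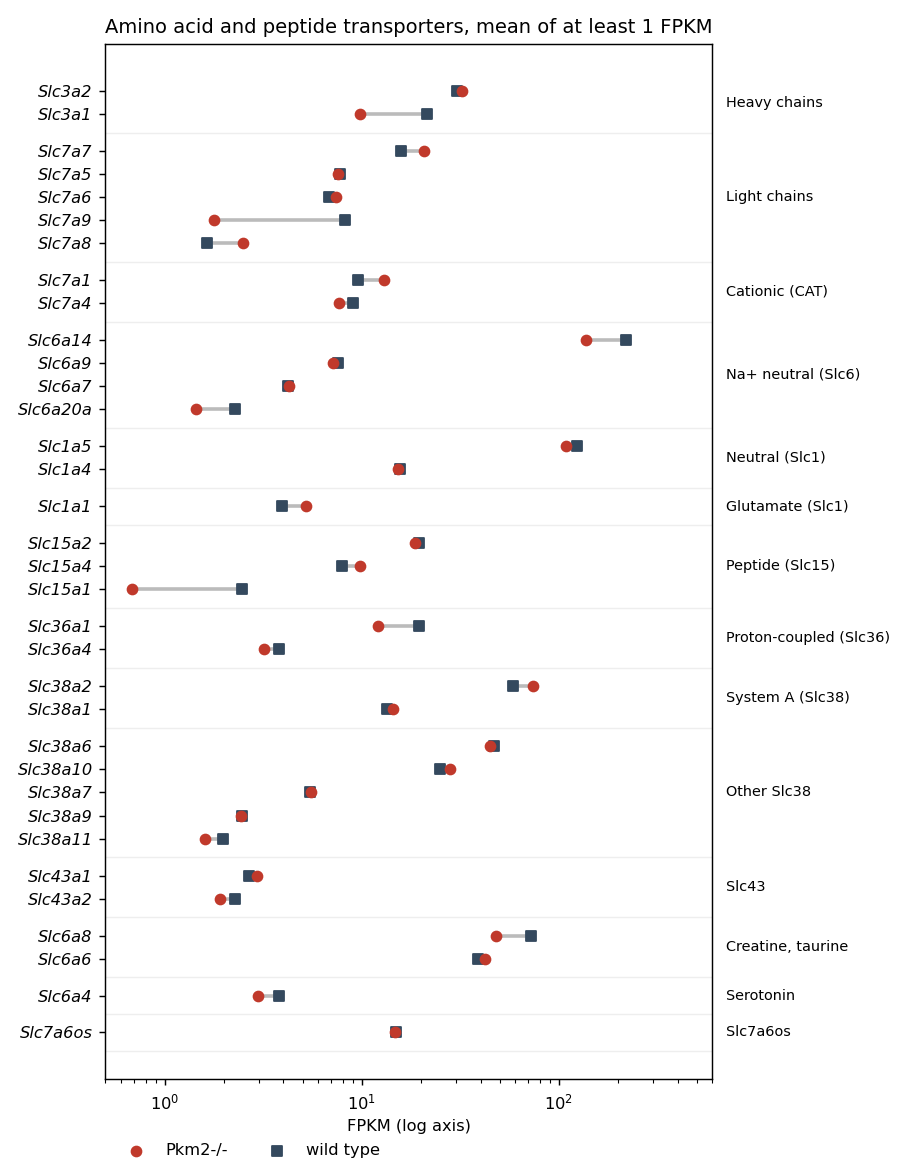
FPKM (log axis) of the measured transporters, grouped by role, in the Pkm2-/- and the wild type library, 1 point per library. Slc7a9, Slc15a1 and Slc3a1 show the widest gaps, with the Pkm2-/- point to the left, while 14 of the 34 members lie within 1.1-fold.

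The cystine and cationic amino acid exchanger of the brush border was lower in both of its chains. The light chain Slc7a9 (ENSMUSG00000030492, chr7:35448796-35466036 on GRCm38, plus strand) had 1.78 FPKM in the Pkm2-/- library and 8.21 FPKM in the wild type library, 4.62-fold lower (95% counting interval 3.55 to 6.01). Its log2 ratio of -1.73 was the lowest of the measured members. The heavy chain Slc3a1 (chr17:85028376-85064236, plus strand) had 9.77 FPKM in Pkm2-/- and 21.4 FPKM in wild type, 2.19-fold lower (1.96 to 2.45). Because the light chain differed more, the level of Slc3a1 was 5.49 times that of Slc7a9 in Pkm2-/- and 2.60 times in wild type. Of the exon bases of Slc3a1, 26.5% are shared with Prepl on the other strand, which stood at 15.6 FPKM in Pkm2-/- and 14.96 FPKM in wild type. Strand use in the library is not given in the sources used here, so reads in that overlap could have been counted for either gene.

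The promoters of the pair and of the other strongly lower carriers are printed to show what the start regions of these luminal genes look like. They run from 250 bases before to 50 bases after the RefSeq start of the gene on GRCm38.p6, 5′ to 3′ on the strand of the gene. The windows are chr17:85028097-85028396 (plus strand) for Slc3a1, chr7:35448842-35449141 (plus) for Slc7a9, chr14:121505205-121505504 (minus) for Slc15a1 and chrX:21714650-21714949 (plus) for Slc6a14. The RefSeq start of Slc7a9 lies downstream of the gene start given above. Its window therefore lies wholly inside that gene span and holds no base before it. Capitals mark matches to the 4 motifs described next, and 3 of the 4 windows hold none.
Slc3a1: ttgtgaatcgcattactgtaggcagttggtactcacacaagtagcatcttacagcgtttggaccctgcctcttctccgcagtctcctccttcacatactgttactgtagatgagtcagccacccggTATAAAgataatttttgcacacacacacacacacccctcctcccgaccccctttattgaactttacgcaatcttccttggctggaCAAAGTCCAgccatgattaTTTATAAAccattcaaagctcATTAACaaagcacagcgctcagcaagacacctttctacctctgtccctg
Slc7a9: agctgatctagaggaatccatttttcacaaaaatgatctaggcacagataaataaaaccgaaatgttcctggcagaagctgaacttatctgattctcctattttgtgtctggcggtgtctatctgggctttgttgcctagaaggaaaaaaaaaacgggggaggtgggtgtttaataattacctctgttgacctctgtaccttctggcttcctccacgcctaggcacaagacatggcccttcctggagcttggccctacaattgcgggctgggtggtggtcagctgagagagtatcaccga
Slc15a1: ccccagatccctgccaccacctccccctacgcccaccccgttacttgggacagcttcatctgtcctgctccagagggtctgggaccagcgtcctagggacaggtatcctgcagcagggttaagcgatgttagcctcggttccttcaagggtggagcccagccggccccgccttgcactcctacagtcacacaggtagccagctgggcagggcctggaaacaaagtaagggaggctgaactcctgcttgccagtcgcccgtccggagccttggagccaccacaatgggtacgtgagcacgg
Slc6a14: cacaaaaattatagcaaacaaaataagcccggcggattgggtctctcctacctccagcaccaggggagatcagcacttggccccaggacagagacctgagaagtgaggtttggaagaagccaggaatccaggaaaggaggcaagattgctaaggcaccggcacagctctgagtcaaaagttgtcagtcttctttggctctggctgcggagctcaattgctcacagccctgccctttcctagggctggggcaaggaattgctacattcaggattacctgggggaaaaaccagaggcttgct

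Short motifs of factors known in intestine or in amino acid shortage were searched on both strands, chosen after the values were known. HNF4 and HNF1 are transcription factors of absorptive epithelia, and the letters searched were CAAAGTCCA for an HNF4 core and GTTAAT for an HNF1 core. For an ATF4 element they were TGATGNAA, where N is any base. The last motif was the TATA box, spelled TATAAA. Of 27025 mouse promoters of that length, 0.474% held the HNF4 core, 7.22% the HNF1 core, 14.2% the TATA box and 4.06% the ATF4 element. RefSeq promoters were found for 43 of the 58 members. Slc3a1 was the only one of them with the HNF4 core, which begins 39 bases before the start, and it also held TATA boxes and the HNF1 core. In that window the TATA box at -20 on the minus strand and the one at -18 on the plus strand overlap. The HNF1 core was found in 4 members (9.30%), Slc3a1, Slc36a1, Slc6a20a and Slc7a15. The TATA box was found in 4 members (9.30%) too, Slc1a3, Slc3a1, Slc43a1 and Slc7a15. Both shares rest on too few members to compare with the 7.22% and 14.2% of all promoters. The ATF4 element was found in 3 members (6.98%), Slc7a11, Slc7a7 and Slc1a4, a share too small to compare with the 4.06% of all promoters. For 6 members at least 1.5-fold lower by plain ratio a promoter was found, with a median GC content of 53.7%. It was 64.0% for the other 21 measured members with a promoter and 60.7% for 8996 measured genes. The ratio of observed to expected CpG pairs had medians of 0.451, 0.749 and 0.772 in the same 3 sets. The ranges of the lower and the other members overlapped widely. GC content ran from 46.3% to 62.7% in the lower members and from 46.3% to 75.7% in the others. The CpG ratio ran from 0.193 to 0.859 and from 0.334 to 1.03. These matches describe letters in the windows and show neither binding nor its absence.

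Among the peptide carriers, Slc15a1 was the one at least 1.5-fold apart. Slc15a1 (chr14:121459621-121505252, minus strand), the proton-driven uptake carrier for short peptides, had 0.678 FPKM in Pkm2-/- and 2.46 FPKM in wild type, 3.62-fold lower (2.59 to 5.21). It was a low transcript in both libraries, resting on about 45 fragments in Pkm2-/- and 145 in wild type. The related carrier Slc15a2 (PepT2), known mainly from kidney and brain, was far more abundant and close in both, at 18.6 FPKM in Pkm2-/- and 19.4 FPKM in wild type. Slc15a2 thus stood 27.4 times above Slc15a1 in Pkm2-/- and 7.90 times above it in wild type. Slc15a4, which exports histidine and short peptides from endolysosomes and takes part in innate immune signalling, had 9.81 FPKM in Pkm2-/- and 7.89 FPKM in wild type, 1.24-fold higher (1.09 to 1.41). Macrophage and dendritic cell markers summed to 14.96 FPKM in Pkm2-/- and 8.33 FPKM in wild type, and their part in this value was not tested. Slc15a3, a lysosomal relative of Slc15a4, stayed under 1 FPKM, at 0.143 FPKM in Pkm2-/- and 0.111 FPKM in wild type. The summed level of the peptide carriers was therefore close, at 29.2 FPKM in Pkm2-/- and 29.9 FPKM in wild type.

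Among the sodium-coupled neutral amino acid carriers of family Slc6, most of the transcript level was in a single gene. Slc6a14 (ATB0,+; chrX:21714896-21742355, plus strand), a sodium- and chloride-driven concentrator of neutral and cationic amino acids, was the most abundant member in both libraries, with 137 FPKM in Pkm2-/- and 218 FPKM in wild type. It was 1.59-fold lower (1.55 to 1.63) and made up 19.2% of the summed transporter FPKM in Pkm2-/-, against 26.2% in wild type. Without it the members summed to 577 FPKM in Pkm2-/- and 614 FPKM in wild type, and with it to 714 FPKM in Pkm2-/- and 832 FPKM in wild type. Most of the gap in the sum was thus in Slc6a14. Slc6a20a, a proline carrier of the brush border, had 1.44 FPKM in Pkm2-/- and 2.27 FPKM in wild type, 1.58-fold lower (1.24 to 2.01), while on the log2 scale its -0.42 did not reach the 1.5-fold count. Its near copy Slc6a20b was listed at 0.103 FPKM in Pkm2-/- and 0.0475 FPKM in wild type, and reads they share could have been split between them. Slc6a19 (B0AT1), the main neutral amino acid carrier of small intestine, was near the floor of the data, at 0.358 FPKM in Pkm2-/- and 0.526 FPKM in wild type. Slc6a9, a glycine carrier, had 7.15 FPKM in Pkm2-/- and 7.60 FPKM in wild type. Slc6a7, known as a proline carrier of brain, had 4.26 FPKM in Pkm2-/- and 4.20 FPKM in wild type. Neither of these carriers was more than 1.1-fold apart.

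Proton-coupled carriers were lower as well. Slc36a1 (PAT1), which moves glycine, alanine and proline across the luminal membrane and out of lysosomes, had 12.1 FPKM in Pkm2-/- and 19.4 FPKM in wild type, 1.60-fold lower (1.495 to 1.72). Its relative Slc36a4 had 3.18 FPKM in Pkm2-/- and 3.78 FPKM in wild type, 1.19-fold lower (1.04 to 1.35). Creatine and taurine uptake differed from each other. The creatine carrier Slc6a8 had 48.0 FPKM in Pkm2-/- and 72.4 FPKM in wild type, 1.51-fold lower (1.45 to 1.57), and its log2 ratio of -0.58 lay just outside the 1.5-fold count. The taurine carrier Slc6a6 had 42.2 FPKM in Pkm2-/- and 39.1 FPKM in wild type. These abundant carriers were thus nearly level in Pkm2-/-, while in wild type the creatine carrier was well above the taurine carrier. The serotonin carrier Slc6a4, which clears serotonin released by enteroendocrine cells, had 2.97 FPKM in Pkm2-/- and 3.79 FPKM in wild type, 1.28-fold lower (1.03 to 1.56). Of 7 enteroendocrine markers, 4 were at least 1.5-fold lower, with sums of 194 FPKM in Pkm2-/- and 312 FPKM in wild type, and their part in the Slc6a4 level was not tested.

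**Figure D2:**
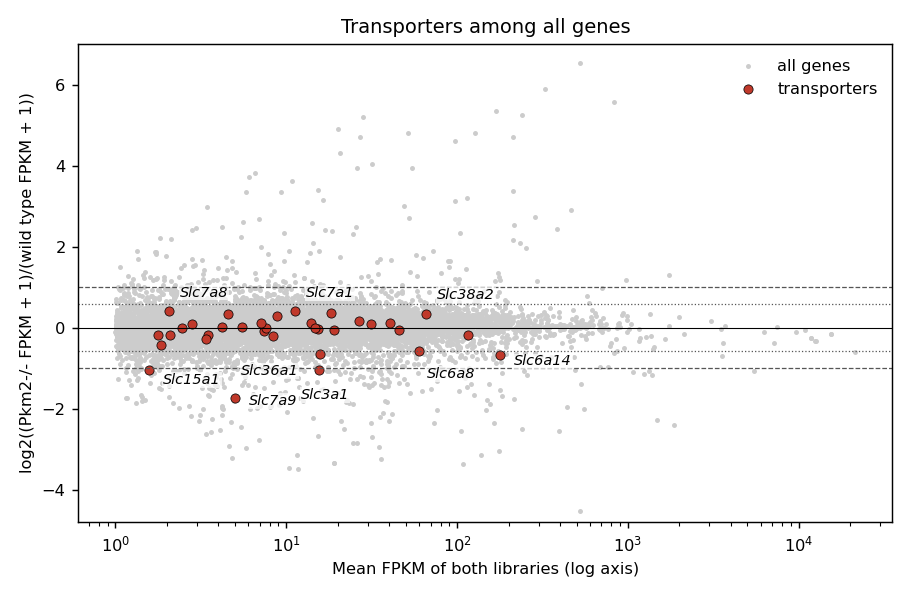
Log2 ratio of Pkm2-/- over wild type, with 1 FPKM added to each value, against mean FPKM (log axis) for 12429 genes in grey and the 34 measured transporters in red. Dotted lines mark 1.5-fold and dashed lines 2-fold. Slc7a9 lies at -1.73, Slc3a1 and Slc15a1 lie just below the 2-fold line, and no transporter passes the upper dotted line.

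The measured small neutral exchangers of family Slc1 and the measured Slc38 carriers were all within 1.5-fold. Slc1a5 (ASCT2), a glutamine exchanger of proliferating cells, was the second most abundant member in both libraries, at 108 FPKM in Pkm2-/- and 123 FPKM in wild type, 1.14-fold lower (1.101 to 1.18). Crypt and proliferation markers summed to 161 FPKM in Pkm2-/- and 96.8 FPKM in wild type. Slc1a4, a relative of Slc1a5, had 15.2 FPKM in Pkm2-/- and 15.6 FPKM in wild type. The system A carrier Slc38a2 (SNAT2), whose transcript is known to increase when cells lack amino acids, had 74.2 FPKM in Pkm2-/- and 58.1 FPKM in wild type, 1.28-fold higher (1.23 to 1.32). Slc38a1, the other measured system A carrier, had 14.4 FPKM in Pkm2-/- and 13.4 FPKM in wild type. System A carriers together summed to 88.6 FPKM in Pkm2-/- and 71.7 FPKM in wild type. The other measured Slc38 genes were close, led by Slc38a6 at 44.5 FPKM in Pkm2-/- and 46.6 FPKM in wild type, and Slc38a10 at 28.0 FPKM in Pkm2-/- and 25.0 FPKM in wild type. The lysosomal members are of interest because Slc38a9 reports lysosomal arginine to mTORC1 and Slc38a7 exports glutamine from lysosomes. Slc38a9 had 2.45 FPKM in Pkm2-/- and 2.47 FPKM in wild type, and Slc38a7 had 5.49 FPKM in Pkm2-/- and 5.48 FPKM in wild type. Slc38a11 had 1.60 FPKM in Pkm2-/- and 1.97 FPKM in wild type, a gap within its counting error.

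The heavy chain Slc3a2 and its light chains did not share the lower level of the luminal pair. Slc3a2 had 32.2 FPKM in Pkm2-/- and 30.3 FPKM in wild type, with a counting interval that included no difference. Among its light chains, Slc7a8 (LAT2) had 2.50 FPKM in Pkm2-/- and 1.64 FPKM in wild type, 1.53-fold higher (1.22 to 1.92), and was the only measured member at least 1.5-fold higher by plain ratio. Slc7a7 (y+LAT1), the basolateral exit route of cationic amino acids that is lost in human lysinuric protein intolerance, had 20.7 FPKM in Pkm2-/- and 15.9 FPKM in wild type, 1.31-fold higher (1.18 to 1.44). Slc7a6 (y+LAT2) had 7.38 FPKM in Pkm2-/- and 6.79 FPKM in wild type, and its neighbour gene Slc7a6os had 14.7 FPKM in Pkm2-/- and 14.8 FPKM in wild type. Slc7a5 (LAT1), the leucine and large neutral amino acid exchanger of growing cells, had 7.59 FPKM in Pkm2-/- and 7.72 FPKM in wild type. In the files its locus is merged with those of 86 other genes, so its value is less certain. The cystine and glutamate exchanger Slc7a11 (xCT), which feeds glutathione synthesis, stayed under 1 FPKM, at 0.690 FPKM in Pkm2-/- and 0.440 FPKM in wild type, 1.57-fold higher (1.17 to 2.09). The 5 light chains of Slc3a2 listed here summed to 38.9 FPKM in Pkm2-/- and 32.5 FPKM in wild type, which is 1.21 times the level of Slc3a2 in Pkm2-/- and 1.07 times in wild type.

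Slc7a9 with Slc3a1, and Slc6a14, which also carry cationic amino acids, were described above. The other cationic and the acidic amino acid carriers with a mean of at least 1 FPKM differed by less than 1.5-fold. Slc7a1 (CAT1), a widely used arginine and lysine carrier, had 12.9 FPKM in Pkm2-/- and 9.55 FPKM in wild type, 1.35-fold higher (1.26 to 1.45). Slc7a4, a related gene, had 7.68 FPKM in Pkm2-/- and 9.06 FPKM in wild type, 1.18-fold lower (1.05 to 1.33). Slc7a2 (CAT2), the arginine carrier of activated macrophages, stayed under 1 FPKM, at 0.167 FPKM in Pkm2-/- and 0.322 FPKM in wild type, 1.92-fold lower (1.19 to 3.21). The glutamate carrier Slc1a1 (EAAT3) had 5.23 FPKM in Pkm2-/- and 3.94 FPKM in wild type, 1.33-fold higher (1.14 to 1.55), and so was a luminal carrier that did not share the lower level. Of its exon bases, 31.9% overlap 4430402I18Rik on the other strand, which had 2.25 FPKM in Pkm2-/- and 2.69 FPKM in wild type. The facilitative carriers of branched-chain and aromatic amino acids were within 1.5-fold. Slc43a1 had 2.93 FPKM in Pkm2-/- and 2.67 FPKM in wild type, a gap within its counting error. Slc43a2 had 1.91 FPKM in Pkm2-/- and 2.28 FPKM in wild type, 1.19-fold lower (1.01 to 1.40).

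The remaining 24 members had means under 1 FPKM, between 0.00604 and 0.815. Slc6a11, Slc6a13 and Slc36a3os were listed in Pkm2-/- only, each resting on about 1 fragment, and Slc6a15 and Slc6a2 in wild type only, on about 1 fragment for Slc6a15 and 2 for Slc6a2. A gene listed at 0 in a library need not be silent at such levels. The largest level in this range was that of Slc1a2 (GLT-1), a glutamate carrier best known from astrocytes, at 1.31 FPKM in Pkm2-/- and 0.317 FPKM in wild type, 4.15-fold higher (3.22 to 5.50). The 8 enteric neuron and glia markers had sums of 0.643 FPKM in Pkm2-/- and 0.960 FPKM in wild type, with Sox10 among those listed in neither library. Slc38a3 (SNAT3), a glutamine carrier of kidney and liver chosen after its values were seen, had 0.0205 FPKM in Pkm2-/- and 0.423 FPKM in wild type. It rested on about 1 fragment in Pkm2-/- and 25 in wild type, a 20.7-fold lower ratio with an interval of 4.63 to 1160. Slc7a15, a close relative of Slc7a9, had 0.0287 FPKM in Pkm2-/- and 0.399 FPKM in wild type, on about 1 fragment in Pkm2-/- and 14 in wild type, a 13.9-fold lower ratio (2.41 to 669). The other members of this range included Slc1a3, Slc6a12, Slc6a17, Slc6a19os, Slc6a20b, Slc7a3, Slc7a14, Slc36a1os, Slc38a4, Slc38a5 and Slc43a3, besides those already named, and 15 of the 24 rested on at least 10 fragments over both libraries.

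Carriers with a well-known membrane side were set apart, a sorting made after the values were seen. Those assigned to the luminal face were mostly lower in Pkm2-/-, while most assigned to the basolateral face were not. Some measured members were given no side, among them Slc7a5, Slc6a9, Slc15a2, Slc38a2 and Slc7a1, with ratios on both sides of 0. The counts below depend on that choice. Of 10 measured luminal carriers or chains, 8 had ratios below 0 and 5 were at least 1.5-fold lower, with a median log2 ratio of -0.61. Of all genes 41.2% had a ratio below 0 and 5.29% counted as 1.5-fold lower. These 5 luminal genes are the 5 members counted before, regrouped. For 8 of the 10 measured luminal carriers or chains, the counting interval of the fold lay wholly on the lower side. The luminal carriers, with Slc6a19 included, summed to 367 FPKM in Pkm2-/- and 511 FPKM in wild type. Of 5 measured basolateral chains or carriers, 4 had ratios above 0, as did 7309 of the 12429 genes measured across the series. None of the 5 was 1.5-fold apart, and their median was 0.11, against 0.06 over all genes. Their sums were 64.7 FPKM in Pkm2-/- and 56.9 FPKM in wild type. The luminal exceptions were Slc6a6 and Slc1a1, and the basolateral exception was Slc43a2. The colonocyte markers were lower too, at a median of -0.81. Of 7 goblet cell markers 3 were at least 1.5-fold lower, with sums of 9835 FPKM in Pkm2-/- and 10982 FPKM in wild type, and all 4 measured erythrocyte markers were lower, with sums of 1.91 FPKM in Pkm2-/- and 24.5 FPKM in wild type. The part of cell composition in the transporter levels was not tested. In bulk samples such as these, fewer cells of a type and less RNA per cell cannot be told apart.

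**Figure D3:**
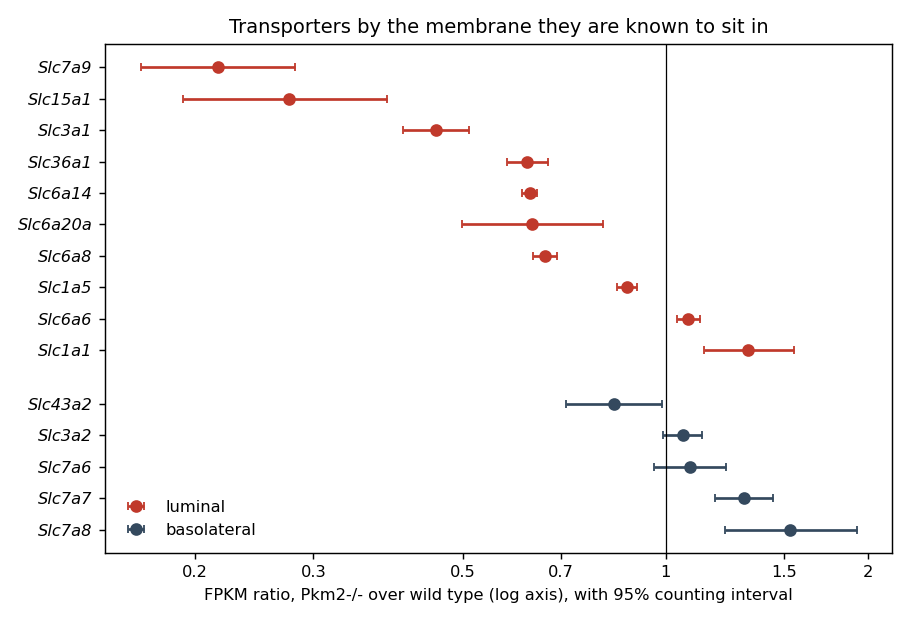
Plain FPKM ratio of Pkm2-/- over wild type (log axis) for measured carriers assigned to the luminal (red) or the basolateral (blue) membrane, 1 point per gene with its 95% counting interval. Luminal carriers range from Slc7a9 at 0.217 to Slc1a1 at 1.33, and basolateral ones from Slc43a2 at 0.839 to Slc7a8 at 1.53.

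Peptidases of the brush border, which cut luminal peptides into the substrates of these carriers, differed in the same direction and by more. Of 10 measured genes of this list, 6 were at least 1.5-fold lower and 1 was higher (0 with the libraries scaled to equal medians), with a median log2 ratio of -0.87 and sums of 97.5 FPKM in Pkm2-/- and 232 FPKM in wild type. Ggt1, which splits gamma-glutamyl groups from glutathione outside the cell, had 1.56 FPKM in Pkm2-/- and 21.6 FPKM in wild type. The glutamyl aminopeptidase Enpep had 0.531 FPKM in Pkm2-/- and 4.83 FPKM in wild type. The meprin chains were the most abundant of the list, with Mep1a at 46.6 FPKM in Pkm2-/- and 100.1 FPKM in wild type, and Mep1b at 16.0 FPKM in Pkm2-/- and 44.6 FPKM in wild type. The aminopeptidase Anpep, which binds Slc6a19 at the intestinal brush border, had 0.810 FPKM in Pkm2-/- and 1.84 FPKM in wild type.

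Peptidases and aminoacyl-tRNA synthetases inside the cell mostly had ratios above 0. So did genes at large, with 41.2% of all genes below 0 and a median of 0.06. Of 10 cytosolic peptidases, 9 had ratios above 0, none was at least 1.5-fold lower, and the median was 0.26. Leucine aminopeptidase Lap3 led them, at 133 FPKM in Pkm2-/- and 46.5 FPKM in wild type, while the dipeptidase Cndp2 was lower, at 25.3 FPKM in Pkm2-/- and 38.2 FPKM in wild type, 1.51-fold by plain ratio, and it counted as 1.5-fold lower when the libraries were scaled to equal medians or upper quartiles. Of 20 cytosolic aminoacyl-tRNA synthetase genes, which load amino acids onto tRNA, 19 had ratios above 0, with a median of 0.19. With the libraries scaled to equal medians, the medians were 0.17 for the cytosolic peptidases and 0.11 for the synthetases. Without that scaling, the epithelial markers also had 8 of 9 ratios above 0, with a median of 0.26. Only Wars and Kars among the synthetases were at least 1.5-fold higher, and Wars, the tryptophan enzyme induced by interferon-gamma, stood at 390 FPKM in Pkm2-/- and 37.1 FPKM in wild type. Sars was the synthetase with a ratio below 0, at 41.6 FPKM in Pkm2-/- and 48.1 FPKM in wild type.

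Genes of the amino acid shortage response were mixed. Atf4, the transcription factor of that response, had 100.9 FPKM in Pkm2-/- and 100.8 FPKM in wild type. Of 18 measured genes in its list, 3 were at least 1.5-fold higher and 1 was lower, with a median of -0.01. The serine synthesis enzyme Psat1 had 12.3 FPKM in Pkm2-/- and 5.97 FPKM in wild type, and Phgdh had 25.1 FPKM in Pkm2-/- and 15.3 FPKM in wild type. Vldlr was the lower gene, at 4.41 FPKM in Pkm2-/- and 7.35 FPKM in wild type. Among 19 measured genes of amino acid sensing at the lysosome, none was 1.5-fold apart and the median was 0.10.

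Among enzymes that consume the carried amino acids, 2 were at least 1.5-fold higher and 1 was lower. Ido1, which degrades tryptophan and is induced by interferon-gamma, had 1037 FPKM in Pkm2-/- and 10.3 FPKM in wild type. The aspartate aminotransferase Got1 had 32.2 FPKM in Pkm2-/- and 16.3 FPKM in wild type. The mitochondrial arginase Arg2 had 3.01 FPKM in Pkm2-/- and 10.1 FPKM in wild type. The other 8 measured enzymes of the list, among them glutamine synthetase Glul, lay within 1.5-fold, and the median of all 11 was 0.06. None of the 3 measured amino acid transporters of further families, Slc16a10, Ctns and Pqlc2, was 1.5-fold apart.

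**Figure D4:**
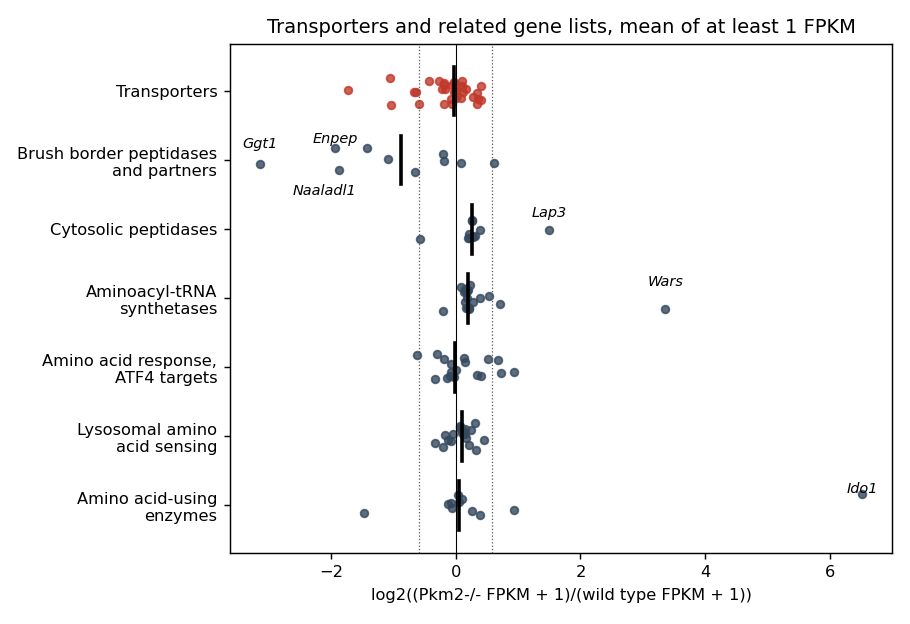
Log2 ratio of Pkm2-/- over wild type, with 1 FPKM added to each value, for the measured transporters (top row) and 6 related gene lists, 1 point per gene with the list's median as a bar and dotted lines at 1.5-fold. The brush border peptidases lie furthest to the left with a median of -0.87, while the cytosolic peptidases (0.26) and aminoacyl-tRNA synthetases (0.19) lie to the right of 0.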

How the data were processed

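Colon epithelial cells were frozen and RNA was extracted with Trizol for mRNA libraries, per the labels' protocols. The deposited files hold 1 value per gene without a header, and these were read as FPKM made by the authors, a unit inferred from the values and the tools. The submitters' processing notes name Cuffdiff (1.3.0 and 2.2.1), Cufflinks 2.2.1, TopHat2 2.1.1 with Bowtie2 2.2.9, and build mm8. However, GENCODE M21 (GRCm38) held 99.4% of the 22384 gene IDs, and for 99.9% of these its locus overlapped the deposited one, so GRCm38 coordinates are used.

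FPKM of rows sharing a symbol were summed and unlisted genes were set to 0. Ratios used a pseudocount of 1 FPKM, and genes averaging under 1 FPKM were not counted. With 1 library per genotype, genes were counted by size at 1.5-fold and 2-fold with no test. The step between the lowest values was 0.0468 FPKM times kb in Pkm2-/- and 0.0529 in wild type, which gave the fragment totals, and 95% Clopper-Pearson intervals used the longest protein-coding transcript of each gene. The calculation was tested on simulated data. Python 3.11.15, pandas 2.3.3 and scipy 1.17.1 were used.

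The members and lists were chosen with earlier results of these data known. Every member with a mean of at least 1 FPKM could be named. Members under that level were named as partner chain, close relative, main intestinal carrier or when listed in 1 library only, except that Slc38a3 was given with its values after these were seen and others were listed by name. From related lists the largest ratios and direct partners were named. The motifs and membrane sides were set after the values were seen. Some genes are not reported here. Alternatives covered the pseudocount, the filter and the scaling between libraries.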

Additional observations from a re-analysis of the deposited data

How the results depend on the processing

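The direction of the called carriers was kept under every alternative run, and 6 members, none of them called, had ratios that crossed 0 under some setting. The main counts were 5 members at least 1.5-fold lower, 3 at least 2-fold lower, none higher at either fold and a median of -0.03. With a pseudocount of 5 FPKM, 3 were 1.5-fold lower and 0 were 2-fold lower, beside 2.65% and 0.998% of all genes, with a median of -0.0210. With a pseudocount of 0.1 FPKM 7 were 1.5-fold lower, beside 7.24% of all genes. Without the filter on low values 1 member, Slc1a2, was 1.5-fold higher, beside 3.11% of all genes, and the median was -0.0235. With a filter at 5 FPKM 22 members were left, with a median of -0.0158. Of these, 3 were 1.5-fold lower and 1 was 2-fold lower, beside 4.43% and 1.71% of all genes. Scaling the libraries to equal medians multiplied Pkm2-/- values by 0.943, which gave a median of -0.104 and 6 members lower by 1.5-fold. Of all genes 3.35% were then 1.5-fold higher and 6.46% lower, against 4.46% and 5.29% before scaling. Their median was then -0.0134, against 0.06 before scaling. Equal upper quartiles gave a median of -0.0873 and 6 members lower, beside 0.0035 and 6.20% for all genes. Equal sums outside the mitochondrial genome gave 0.0168 and 5, beside 0.105 and 4.73%. By plain ratio without a pseudocount, an alternative chosen after seeing the data, 7 were 1.5-fold lower and 1, Slc7a8, was higher. No share over all genes is given here for the plain ratio. No paired analysis was possible because each genotype had 1 library. Depth limits the members below 1 FPKM, where a few fragments decide a ratio.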
